A study of Mus musculus with 4 samples.

Results

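Cells induced towards a neural stem cell state with 13 factors (iNSC_13F) were compared with primary-derived neural stem cells (NSC), across all array probe sets that name 1 gene. Of 45101 probe sets on the array, 34945 named 1 gene, and they covered 18193 genes, of which 11141 were above background on at least 1 of the 2 arrays and are called measured. The study hybridized total RNA of 4 mouse cell populations, mouse embryonic fibroblasts (MEF), NSC, iNSC_13F and iNSC_14F, to 1 Affymetrix array each. The series concerns the conversion of adult liver cells and B lymphocytes into neural stem-like cells. The labels name neither the starting cell of iNSC_13F nor its 13 factors, and they do not say whether the culture was 1 clone, how many passages it had, or from which brain region the NSC came. For all 4 samples the source label reads embryonic stem cells, which differs from the cell type labels used here. Both populations compared were grown in the same N2 medium, a serum-free mixture with insulin, transferrin, selenite, progesterone and putrescine, with EGF, basic FGF and laminin added. Each side is 1 array, so no difference below has a replicate check, and no error or p-value is given. Where the dimmer array was below background, the fold is a lower bound and is written "at least".

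Neural stem cells divide in culture under EGF and FGF and can form neurons, astrocytes and oligodendrocytes. They keep a record of their position along the body axis in homeobox genes: the Hox genes mark hindbrain, spinal cord and trunk, while factors such as Otx2 and Six3 mark the forebrain. When another cell type is converted by introduced factors, the usual questions are whether neural genes reach the level of the reference, whether genes of the old cell type go silent, and which position the new cells take.

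The 2 arrays differed in their technical controls. The hybridization controls, transcripts added to the hybridization mix, had a geometric mean signal of 8596 on iNSC_13F and 4081 on NSC, a ratio of 2.11, and the ratio of all 18 probe sets lay between 1.82 and 2.47. The poly-A controls, transcripts added to the RNA, had a ratio of 3.49, the 18S ribosomal RNA probe sets 3.22, the actin control 1.63 and the Gapdh control 1.60. The ratio of 3' to 5' signal was 1.53 on iNSC_13F and 1.35 on NSC for actin, and 0.806 and 0.723 for Gapdh. The deposited signals had the same trimmed mean, 500, on both arrays, but the 99th percentile was 18962 on iNSC_13F and 13647 on NSC. Every gene and list was therefore also computed under quantile normalization, under scaling to the hybridization controls, and after removing a running median over genes of like brightness. A gene is called kept where it differed the same way by the stated fold under these and the deposited scaling, 4 scalings in all. Folds below, and genes called within 2-fold, refer to the deposited scale unless another is named. Scaling to the controls lowered iNSC_13F relative to NSC, so being kept was harder for a higher gene than for a lower one. At 2-fold, 143 of 1655 higher genes were kept and 2071 of 2287 lower genes. For a lower gene, being kept therefore adds little. The part that the controls' difference plays in the results was not tested.

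Far more genes were lower than higher in iNSC_13F. Of 11141 measured genes, 120 were at least 4-fold higher (1.08% of those measured) and 1225 at least 4-fold lower (11.0%). Higher genes made up 8.92% of these calls. That share was 15.5% under quantile normalization, 3.77% with the running median and 1.44% under scaling to the controls. The median log2 difference over all measured genes was 0.30, and it was 0.37, -0.06 and -0.65 under these scalings. Under all 4 scalings 31 genes were at least 4-fold higher (0.278%) and 1062 at least 4-fold lower (9.53%). Among the calls, 40 of the higher and 383 of the lower genes were bounds. The 80 higher and 842 lower genes above the floor on both arrays had median folds of 4.79 and 6.79. Over single probe sets, 195 of 19554 measured were at least 4-fold higher (0.997%) and 2202 at least 4-fold lower (11.3%). When all probe sets of a gene were summarised by their median rather than by the brightest, 74 genes were higher and 655 lower. At 2-fold, 1655 genes (14.9%) were higher and 2287 (20.5%) lower, and 143 (1.28%) and 2071 (18.6%) were kept. These shares are the background against which the gene lists below are read. A gene above the floor on 1 array only could differ only towards that array, in the lists as among all genes.

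**Figure D1:**
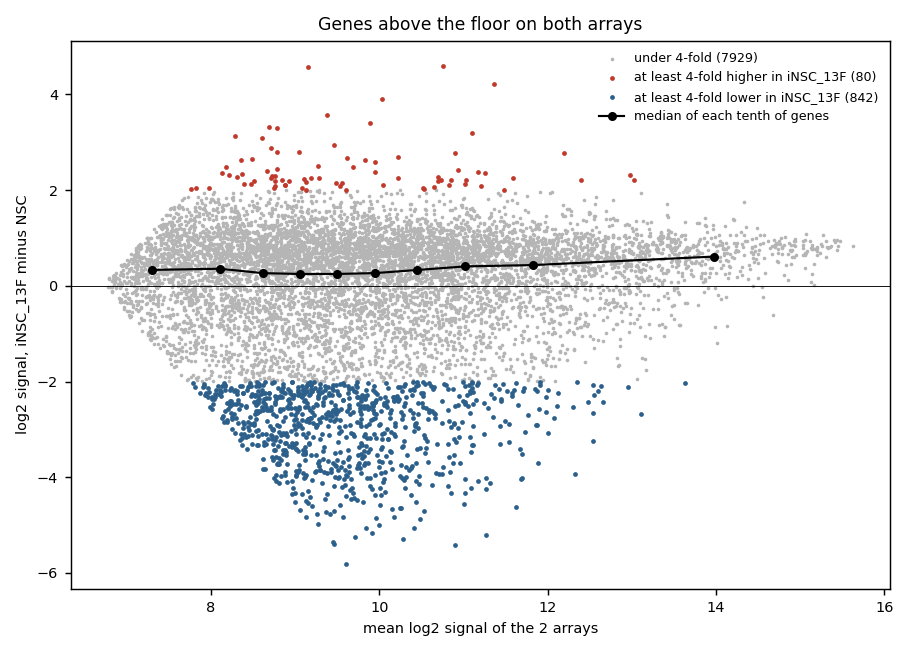
Log2 signal difference, iNSC_13F minus NSC, of each of the 8851 genes above the floor on both arrays, against the mean log2 signal of the 2 arrays. Red points are the 80 genes at least 4-fold higher, blue points the 842 at least 4-fold lower, and the black line joins the medians of 10 bins of equal size, which lie between 0.25 and 0.61.

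The lower genes were spread over the middle of the range of mean signal. Since the mean is over the 2 arrays, a gene bright on NSC and near the floor on iNSC_13F falls in that middle. The bins therefore do not show how often genes bright on NSC were lower. The plot of differences by brightness shows 158 lower genes in the fourth of 10 bins of mean signal, against 12 in the brightest bin and 2 in the dimmest, where the floor leaves little room for a 4-fold difference. The median difference was 0.61 in the brightest bin and 0.25 in the fourth. The same 1225 genes had a median log2 difference from NSC of -2.83 on iNSC_13F, -2.54 on iNSC_14F and -1.38 on MEF, and the 120 higher genes had 2.32, 1.69 and 2.13. These comparisons share the NSC array, so the values are given only side by side. Over all measured genes the 3 medians were 0.30, 0.25 and -0.02.

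Probe sets of 1 gene gave the measure of spread that the arrays allow. Over 3576 genes with several probe sets above the floor on both arrays, the log2 difference varied between probe sets of a gene with a pooled SD of 0.62. Of the 120 higher genes, 56 had another measured probe set, and 47 of those 76 probe sets (61.8%) were at least 2-fold higher as well, with 0 at least 2-fold lower. Of the 1225 lower genes, 788 had another, and 1044 of 1476 (70.7%) were at least 2-fold lower, while 9 were at least 2-fold higher. Probe sets of a gene can read different transcript ends, so this is a spread of probes and not of cultures.

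The largest measured differences in favour of iNSC_13F were those of single genes with varied roles. Tcim, which encodes a regulator linked to Wnt signalling, had a signal of 8503 on iNSC_13F and 351 on NSC, 24.2-fold higher. Trim9, a ubiquitin ligase best known in neurons, had 2775 and 117, 23.8-fold higher, and its 3 probe sets differed by at least 2.71 on the log2 scale. Hbegf, a membrane-bound ligand of the EGF receptor, had 11304 and 611, 18.5-fold higher. In each of these genes the NSC array was above the floor, so the fold is measured on both sides. Rbm24, an RNA-binding splicing regulator, was 10.5-fold higher, with 3079.7 and 294. Fosl2, an AP-1 transcription factor, had 1299 and 131, 9.95-fold higher, although its other probe set differed by only 0.64 in log2. The proprotein convertase gene Pcsk6 was 9.87-fold, the kinase gene Sgk1 9.09-fold and the membrane protein gene Emp1 8.55-fold higher. Ifi27, an interferon-responsive gene, was 8.77-fold higher but stood at 105 on NSC, just above the floor of 104.1. The podosome scaffold gene Sh3pxd2a was 6.92-fold higher. Other probe sets of Rbm24, Emp1 and Sh3pxd2a, below the floor on NSC, gave bounds as small as 0.25, 0.03 and 0.18 in log2. Dcpp1 (14.9-fold) and the inducible chaperone gene Hspa1b (6.90-fold) have near-identical copies in the mouse genome, so which copy the probes read is uncertain.

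Several of the highest genes were below the floor on NSC. Dmp1, a matrix phosphoprotein of bone and tooth, had 3067 on iNSC_13F and 22.1 on NSC, at least 29.5-fold higher, by a probe set that can bind several transcripts. Cemip, which takes part in breaking down hyaluronan, had 1404 and 73.2, at least 13.5-fold higher. Msx1, a homeobox gene of dorsal neural tube and mesenchyme, had 855 and 79.6, at least 8.21-fold higher. For these genes the size of the difference depends on the floor, and the signal on iNSC_13F is the better guide to the level reached.

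The largest differences in favour of NSC also came from genes with varied roles. Smc2, the ATPase shared by both condensin complexes, had 104 on iNSC_13F and 5836 on NSC, 55.9-fold lower, and its 4 measured probe sets all lay at -2.49 or below on the log2 scale. Ccng1, a cyclin gene activated by p53, had 294 and 12491, 42.5-fold lower, with another probe set at -1.08 in log2. Trp53inp1, another p53 target, had 198 and 7774, 39.2-fold lower. All 3 genes were bright on NSC and near the floor, or a few times above it, on iNSC_13F. The condensin II subunit gene Ncapg2 was 41.9-fold lower, the nucleosome-binding gene Hmgn5 40.7-fold and the integrin gene Itgb8 38.1-fold. Abce1, which recycles ribosomes, was 35.9-fold lower by its brightest probe set, but another lay at -0.02 in log2. The nuclear import receptor gene Ipo7 was 33.3-fold lower and the ubiquitin ligase gene Ube3a 29.0-fold. Another probe set of Ipo7 lay at -0.25 in log2, and another of Ube3a at -0.71, a bound. The septin gene Septin7 was 36.8-fold lower by its brightest probe set, but another of its 3 measured probe sets was higher, by at least 0.66 in log2. Gpbp1 was 33.2-fold lower, the long noncoding RNA Oip5os1 28.5-fold, and Mki67, described with the mitosis genes, is the other of the 15 largest. Dzip3 was 31.3-fold lower by its brightest probe set, but 3 of its 5 measured probe sets were lower and the others higher, by 0.17 and at least 0.57 in log2. Gmfb was 29.1-fold lower by its brightest probe set, with another at -0.54 in log2. Among bounds, the cohesin subunit gene Stag2 had 87.8 on iNSC_13F and 4801 on NSC, at least 46.1-fold lower. Atrx, a chromatin remodeller, had 91.3 and 4227, at least 40.6-fold lower. The long noncoding RNA Tug1 was at least 41.3-fold lower, the kinase gene Rps6ka6 at least 41.8-fold, the receptor-modifying gene Ramp1 at least 37.7-fold and the cargo receptor gene Tmed5 at least 35.9-fold. The other measured probe sets of Tug1, above the floor on both arrays, lay at only -1.36 and -1.35 in log2. That of Rps6ka6 lay at -1.19, a bound.

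Genes read by several probe sets can be checked within each array, though not for an offset that a whole array shares. Of 1200 genes with at least 3 probe sets above the floor on both arrays, 55 were at least 2-fold higher by all of them and 131 at least 2-fold lower by all, and at 4-fold the counts were 1 and 42. Trim9 was the gene at 4-fold higher. After it came Ccdc86, a nucleolar gene, with 1987 on iNSC_13F and 541 on NSC, 3.67-fold higher. Ecrg4, which encodes a secreted peptide precursor of the choroid plexus, had 4904 and 1149.7, 4.27-fold higher. Hmga2, a chromatin protein of young neural stem cells, had 1055 and 269, 3.91-fold higher. Ebf3, a transcription factor of neurons and mesenchyme, and Myh9, the heavy chain of nonmuscle myosin, followed at 3.43-fold and 3.29-fold. Of the higher genes named here, Ccdc86, Hmga2, Ebf3 and Myh9 were not kept at 2-fold. Their log2 differences under scaling to the controls were 0.80, 0.89, 0.70 and 0.64. Trim9 and Ecrg4 were kept at 2-fold. Other genes were lower by every probe set above the floor on both arrays. The kinesin motor gene Kif5b had 216 and 6162 (28.5-fold lower), and the nuclear matrix gene Matr3 had 634 and 15597 (24.6-fold). The remodeller genes Smarca5 and Pbrm1 were 26.0-fold and 24.0-fold lower, the chaperone gene Hsp90aa1 15.2-fold, the long noncoding RNA Malat1 12.9-fold and the membrane linker gene Rdx 11.1-fold. Probe sets below the floor on iNSC_13F gave bounds as small as -0.06 in log2 for Matr3 and -0.48 for Malat1. Many of these are expressed in nearly every cell type.

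**Figure D2:**
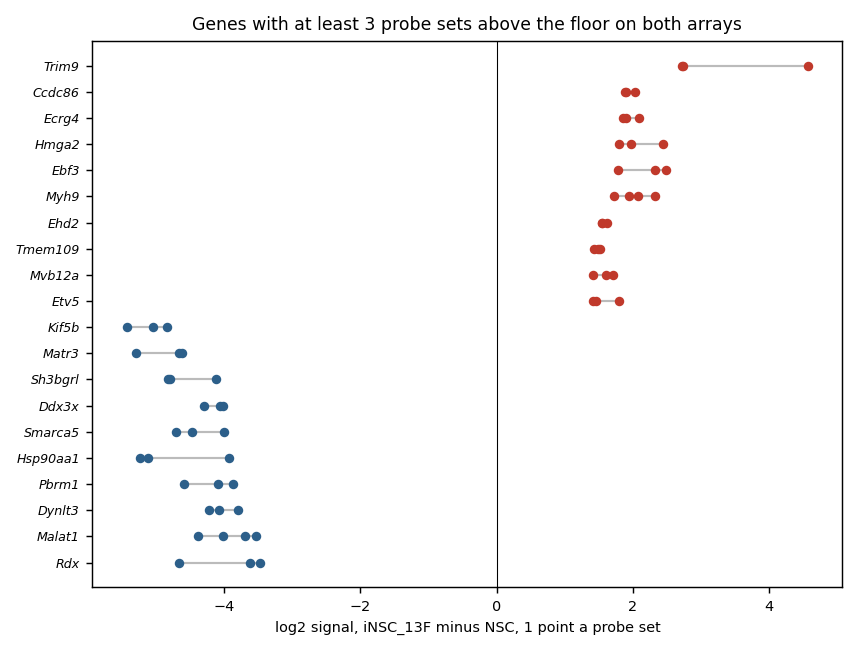
Log2 signal difference, iNSC_13F minus NSC, of each probe set above the floor on both arrays, for the 10 genes each way whose smallest difference was largest (1 point a probe set, the grey line joins the probe sets of a gene). Red genes are higher in iNSC_13F and blue genes lower, and the brightest probe sets of Trim9 and Kif5b differ by 4.57 and -4.83.

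Neural stem cell genes were 2-fold apart about as often as all measured genes. In bulk RNA, fewer cells of a type and less RNA per cell cannot be told apart. Of 34 measured genes that mark neural stem cells or radial glia, the stem cells of the developing brain, 3 were at least 2-fold higher, 8 lower and 23 within 2-fold, with 1 higher and 7 lower kept. The lower share, 23.5%, lay near the 20.5% of all measured genes. The list median was -0.04, below the 0.30 of all measured genes, and it was -1.03 against -0.65 under scaling to the controls. Fabp7, the lipid carrier of radial glia, had 21337 on iNSC_13F and 32378 on NSC. Sox2, a core transcription factor of neural stem cells, had 7699.6 and 8337, and the intermediate filament gene Vim had 49531 and 28487. These 3 genes were within 2-fold of NSC on the deposited scale. Scaled to the controls, the log2 differences of Fabp7, Sox2 and Vim were -1.68, -1.19 and -0.28, beside -0.65 over all genes. Fabp7 was also at -1.38 under quantile normalization and -1.26 with the running median. Gpm6b, a neural membrane glycoprotein, had 2378 and 14938, 6.28-fold lower, and its 3 probe sets were all lower. Sox1, a marker of neuroectoderm, had 96.8 and 525, at least 5.04-fold lower. Prom1, which encodes the surface protein CD133, had 44.0 and 489.7, at least 4.70-fold lower. Both are used as markers of neural stem cells. Ptprz1, a receptor phosphatase, was 4.02-fold lower with 3 of 3 probe sets. Tnc, which encodes tenascin C of the stem cell niche, had 17912 and 3851, 4.65-fold higher, the member kept, although its dimmer probe set went the other way, with a log2 difference of -0.998 that is a bound, since iNSC_13F was below the floor there.

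Genes of the daughter lineages went both ways. Of 22 measured astrocyte genes 2 were higher and 5 lower (median 0.30, the same as over all genes), and the 5 lower ones were kept. Nfib, a transcription factor of gliogenesis, had 573 on iNSC_13F and 5629.9 on NSC, 9.83-fold lower with 6 of 6 probe sets. Sparcl1, a matrix protein of astrocytes, had 2734 and 13233, 4.84-fold lower, while Aldoc, the brain aldolase, had 17206 and 4520.3, 3.81-fold higher. The bicarbonate transporter gene Slc4a4 was 5.73-fold lower with 4 of 4 probe sets. Gfap was below the floor on both arrays. Of 13 oligodendrocyte lineage genes 1 was higher and 1 lower. Olig1 had 34636 and 21677 and Olig2 had 8839 and 8598, both factors of ventral progenitors and within 2-fold on the deposited scale. Scaled to the controls, their log2 differences were -0.40 and -1.03. The lipid enzyme gene Ugt8a was at least 7.87-fold lower, and the myelin-associated gene Bcas1 was 2.74-fold higher.

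Some neuronal genes were lower in iNSC_13F, among them receptor subunits. Of 21 measured neuronal and synaptic genes 1 was higher and 8 lower, and the 8 were kept. Their list median of 0.17 lay near that of all genes, and 13 of the 21 members were bounds. Map2, a dendritic microtubule protein, had 1185 on iNSC_13F and 9803 on NSC, 8.27-fold lower. Gap43, of growing axons, had 1008 and 6725, 6.67-fold lower, and the neuronal RNA-binding gene Elavl4 was at least 7.31-fold lower with 3 of 3 probe sets. Ina, an intermediate filament of young neurons, went the other way, with 914 and 309, 2.96-fold higher. Of 15 measured subunit genes of glutamate and GABA receptors, the main excitatory and inhibitory receptors of the brain, 0 were higher and 8 lower, all 8 kept. Of the 15, 7 were above the floor on NSC only and 3 on iNSC_13F only. Their median was -1.17 against 0.30 over all genes, and it was -1.13, -1.87 and -1.50 under quantile normalization, scaling to the controls and the running median. It was -0.67 with a lower floor, -2.34 with a higher one and -0.58 with the median of probe sets. Over members above the floor on both arrays it was -0.67. Grm5, a metabotropic glutamate receptor, had 86.8 and 4531, at least 43.5-fold lower. The AMPA receptor subunit gene Gria2 had 70.7 and 2952, at least 28.4-fold lower. Another of its probe sets, above the floor on both arrays, had 168 and 344, only -1.03 in log2. A further probe set lay at -3.95, a bound. Gria3 was 6.95-fold and Gria4 8.59-fold lower, the latter with 2 of 3 probe sets. Gabrg1, a subunit of the GABA-A receptor, was at least 12.2-fold lower, and Gabra2, its neighbour on the chromosome, at least 4.32-fold. The metabotropic receptor gene Grm3, in contrast, had 651 and 715, within 2-fold.

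Few genes of hepatocytes, B lymphocytes and other cell types were measured, and the defining markers named here were below the floor on both arrays. Of 26 hepatocyte genes with a probe set 4 were measured, and the highest signal among the 4 was 273 on iNSC_13F, for Apoh. Alb and Afp, which define liver cells, were below the floor on both arrays. Cebpa, a factor of liver and myeloid cells, had 269 and 46.7, at least 2.58-fold higher. Of 21 B lymphocyte genes 5 were measured and 0 were 2-fold apart, and Cd79a and Ptprc were below the floor on both. The brightest was Ebf1, at 462 and 549, a factor also found in neural and mesenchymal cells. Of 16 microglia and macrophage genes 2 were measured, of 15 endothelial genes 2, and of 20 pluripotency genes 5, with Aif1, Pecam1, Pou5f1 and Nanog below the floor on both arrays. The neural crest and Schwann cell list, in contrast, held bright members. Of 6 measured genes 1 was higher and 2 lower, and Sox8, a factor shared with glia, had 3219 and 1920.3. Tfap2a, a neural crest factor, had 426 and 31.0, at least 4.09-fold higher, but Sox10 was below the floor on both. Ednrb, the endothelin receptor B gene, was 22.5-fold lower and Cdh19 at least 6.76-fold lower.

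Fibroblast and mesenchyme genes went both ways, and the share that was lower lay near that of all genes. There were 27 measured members, of which 8 differed upwards by 2-fold or more, 6 of them kept, and 6 lower, 5 kept, with a median of 0.24 beside the 0.30 of all genes. The higher share was 29.6% beside 14.9% of all measured genes, and the lower share 22.2% beside 20.5%. Of the 27, 12 were above the floor on iNSC_13F only and 2 on NSC only. Twist1, a transcription factor of mesenchyme, had 1241 on iNSC_13F and 10.8 on NSC, at least 11.9-fold higher. Fn1, which encodes fibronectin, had 1954 and 255, 7.68-fold higher. Ccn2 and Ccn1, matricellular genes known as targets of YAP, went from 33.5 and 94.5 on NSC to 1070.0 and 671, differences of at least 10.3-fold for Ccn2 and at least 6.45-fold for Ccn1. The surface glycoprotein gene Thy1 was higher by at least 4.53-fold, and the matricellular gene Thbs1 by at least 4.85-fold. The defining collagens of fibroblasts were not among the higher members: Col1a1 was below the floor on both arrays, Col1a2 stood at 116 on iNSC_13F and Col3a1 at 157. The lower members include transcription factors and cytoskeletal genes. Zeb1, a repressor of epithelial genes, had 1619.7 and 10083, 6.23-fold lower with 3 of 3 probe sets. Cald1, an actin-binding protein, had 585 and 4009, 6.86-fold lower, and Zeb2 was at least 5.73-fold lower.

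Among the higher collagens were both chains of the main collagen of basement membranes. Of 19 measured collagen genes 5 were higher and 2 lower, with 3 and 2 kept. Col4a1 had 1987 and 310.1, 6.41-fold higher, and Col4a2, its neighbour and partner in the same collagen IV trimer, had 635 and 123, 5.15-fold higher. Col27a1, a fibrillar collagen of cartilage, was at least 5.07-fold higher, and Col9a1 and Col5a1, of cartilage and of fibrils, were 2.38-fold and 2.04-fold higher. The basement membrane collagens Col4a5 and Col18a1 were within 2-fold. Among 21 measured integrin and laminin genes, the receptors and ligands of the basement membrane, 7 were higher and 6 lower, with 1 and 6 kept. The lower members were led by integrins. Itgb8, which activates latent TGF-beta, had 136 and 5175. Itgb1, the common beta subunit and part of the laminin receptor, had 541 and 3398, 6.28-fold lower with 3 of 3 probe sets. Itga6, its partner in laminin binding, had 1170.4 and 5645, 4.82-fold lower. The higher members were led by Itga9, at least 4.06-fold higher, and Lamb1, 3.79-fold higher. Of 17 neural proteoglycan and tenascin genes 5 were higher and 3 lower. Vcan, a hyaluronan-binding proteoglycan, had 264 and 2032, 7.68-fold lower with 3 of 3 probe sets, while Bcan, a brain proteoglycan, had 30552 and 11578, 2.64-fold higher, a difference of only 0.33 in log2 under scaling to the controls.

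Of 17 measured cadherins and delta protocadherins, adhesion molecules that sort neural cells, 9 were lower, 8 kept, and 0 were higher. The median was -1.01, and -0.69, -1.99 and -1.38 under quantile normalization, scaling to the controls and the running median. It was -0.43 with a lower floor, -0.65 with a higher one and -0.55 with the median of probe sets. Over members above the floor on both arrays it was -0.54. Of the 17, 5 were above the floor on NSC only and 1 on iNSC_13F only. Pcdh11x had 52.7 on iNSC_13F and 1268 on NSC, at least 12.2-fold lower. Pcdh9 was 8.51-fold and Pcdh17 at least 7.32-fold lower, each with 2 of 2 probe sets. Cdh2, the N-cadherin that joins neural stem cells to each other, had 5079 and 6272, within 2-fold. Axon guidance genes went both ways, with 6 of 28 higher and 5 lower. The ephrin receptor gene Epha5 had 24.9 and 1532, at least 14.7-fold lower with 4 of 4 probe sets, and the guidance cue gene Ntn1 had 5361 and 1392, 3.85-fold higher.

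Several Hox genes of anterior paralog groups had signal on iNSC_13F and were below the floor on NSC. Of 13 Hox genes of paralog groups 1 to 5 with a probe set, which pattern hindbrain and neck, 7 were below the floor on both arrays, among them Hoxa4, Hoxb5, Hoxc4 and Hoxd3. Another 5 were above it on iNSC_13F only, so that higher was the one outcome open to them, and 1 on both. Of these 6 measured genes 5 were at least 4-fold higher, and the 5 were kept at 2-fold. The median was 2.79, and it was 2.97, 2.74 and 2.49 under quantile normalization, scaling to the controls and the running median. Hoxa5 had 897 on iNSC_13F and 143 on NSC, 6.28-fold higher, and this member alone had both arrays above the floor, by a probe set of the _x_at kind, which can bind several transcripts. Its other probe set was below the floor on NSC and differed by at least 2.73 in log2. Hoxa3 had 954 and 7.36, at least 9.17-fold higher. Hoxa2 had 793 and 14.4, at least 7.61-fold higher. All 3 lie in the Hoxa cluster. Hoxb2 had 933 and 42.3, at least 8.96-fold higher, and Hoxb3 had 455 and 17.5, at least 4.37-fold higher. Hoxb4 stood at 109 on iNSC_13F, barely above the floor. Of 20 genes of groups 6 to 13, which mark the trunk and tail, 4 were measured, all above the floor on iNSC_13F only. Hoxd8 had 461 and 32.7, at least 4.43-fold higher, and Hoxa7, Hoxc6 and Hoxd9 stood at 180.3, 184 and 168 on iNSC_13F.

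**Figure D3:**
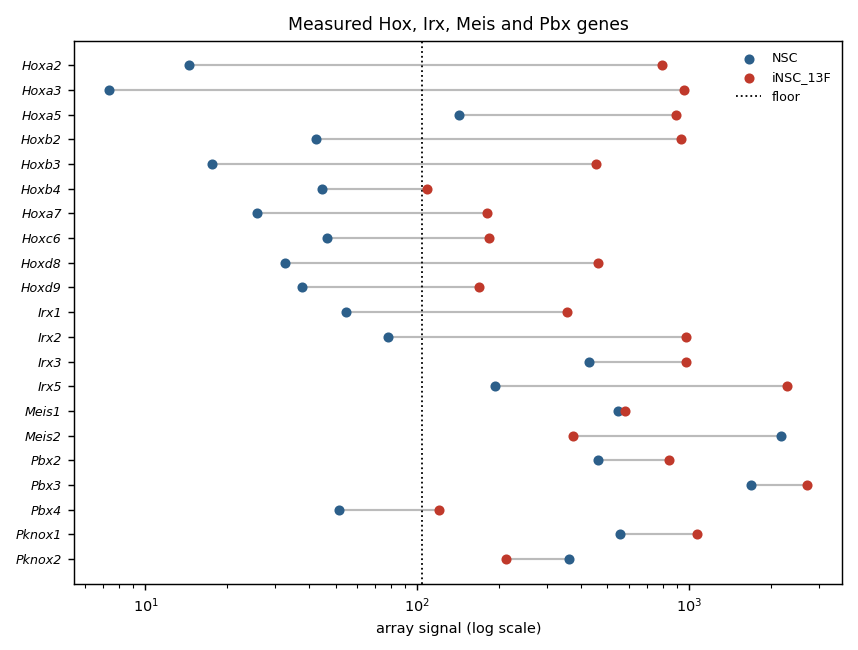
Array signal on a log scale of each measured Hox, Irx, Meis and Pbx gene, with iNSC_13F in red, NSC in blue and the floor of 104.1 as a dotted line. Hoxa2, Hoxa3, Hoxb2 and Hoxb3 lie between 455 and 954 on iNSC_13F and below the floor on NSC, Irx5 lies at 2295 against 192, and Meis2 lies on the other side, at 373 against 2175.

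The Irx, Meis and Pbx homeobox genes, among them cofactors of Hox proteins, had 4 of 11 measured members higher and 1 lower, with 3 and 1 kept. Their median of 0.87 was -0.14 under scaling to the controls, where all genes had -0.65. Irx5 had 2295 on iNSC_13F and 192 on NSC, 11.9-fold higher. Irx2 had 971 and 77.7, at least 9.33-fold higher, and Irx1 at least 3.42-fold. These are patterning factors of neural tube, heart and limb, and each was read by 1 measured probe set. Irx3 was 2.29-fold higher, but by only 0.12 in log2 under scaling to the controls. Meis2, a Hox cofactor also found in forebrain, had 373 and 2175, 5.83-fold lower with 3 of 3 probe sets. Of 11 measured forebrain factor genes 0 were higher and 3 lower, with 1 kept. Otx2 had 3.65 and 216, at least 2.08-fold lower, Six3 had 113 and 237, and Emx2 had 359.9 and 736. The cortical and hippocampal factor Lhx2 had 1215 and 841 and Zic1 had 2995 and 2629.5, both within 2-fold. Neighbouring measured genes that were all at least 4-fold apart the same way formed 4 runs among the higher genes and 211 among the lower. The longest higher run was Skap2, Hoxa2, Hoxa3, 1 predicted gene without an established name, and Hoxa5, and Skap2, an adaptor gene beside the cluster, had 3027 and 467, 6.48-fold higher. The lower runs held 483 of the 1225 genes, with at most 5 genes in a run, for example Trp53inp1, Ccne2, Ints8, Dpy19l4 and Virma.

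The EGF and FGF pathways drive the growth of both cultures, and their members differed in opposite ways. Hbegf, the ligand described above, was the largest difference among 8 measured genes of the EGF receptor family, of which 2 were higher and 1 lower. Egfr itself had 519.5 on iNSC_13F and 2749.6 on NSC, 5.29-fold lower by its brightest probe set. Its 5 measured probe sets disagreed, with log2 differences from -2.40 to 0.74, and 2 of them were lower. Errfi1, a feedback inhibitor of the receptor, had 1273 and 523, 2.44-fold higher. Among 12 measured FGF receptor and ligand genes 4 were higher and 1 lower, and 0 were kept. Fgfr2 had 496 and 151, 3.27-fold higher, Fgfr1 was 2.12-fold and Fgfr3 2.04-fold higher, and under scaling to the controls these 3 log2 differences were 0.64, 0.01 and -0.04.

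Genes that feed back on ERK signalling, the kinase cascade below these receptors, had 7 of 14 measured members higher and 1 lower, with a median of 1.01 that turned to -0.06 under scaling to the controls, where all genes had -0.65. Dusp5, a nuclear phosphatase of ERK, had 1129.8 on iNSC_13F and 155 on NSC, 7.30-fold higher. Phlda1 had 11633 and 2499, 4.66-fold higher. These were the 2 higher members kept. Spry4, an inhibitor of receptor signalling, had 9827 and 3441, 2.86-fold higher, and the ETS factor gene Etv5 had 24369.8 and 9128. Spred1, another inhibitor, went the other way, with 1225 and 3820.2, 3.12-fold lower by 6 of 6 probe sets. Of 21 measured immediate early genes, which answer within minutes to growth signals, 6 were higher and 1 lower. Klf4 had 2264 and 435, 5.21-fold higher, kept along with Fosl2. Jund was 3.02-fold higher, Fos had 926 and 1141, Egr1 had 12276 and 16169, and Klf6 was 3.35-fold lower with 4 of 4 probe sets.

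Factors used in published neural conversions were read as well, since the labels do not name those used here. Of 19 measured genes 5 were higher and 3 lower, with 1 and 2 kept. Klf4 was the higher member kept. Myc, a growth regulator, had 8335 on iNSC_13F and 2572 on NSC, 3.24-fold higher, and Pou3f4, a POU factor of neural progenitors, had 1253 and 391, 3.21-fold higher. Bmi1, a Polycomb gene that keeps stem cells dividing, had 1299 and 5830.1, 4.49-fold lower with 2 of 2 probe sets. Rfx4 had 11681 and 12110.2 and Plagl1 had 498 and 662, both within 2-fold on the deposited scale. Scaled to the controls, their log2 differences were -1.13 and -1.49. Of 12 measured Sox genes 1 was higher and 3 lower. Sox3 had 3821 and 1283, 2.98-fold higher, while Sox5 was at least 6.04-fold and Sox6 4.70-fold lower.

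Of other developmental pathways, the Notch, Hedgehog and Wnt lists held few differences that were kept. The BMP list held more, but its lower share, 26.7%, lay near the 20.5% of all measured genes. Its higher share was 20% beside 14.9%. Over all measured genes 1.28% were kept higher and 18.6% kept lower. Of 21 Notch pathway genes 4 were higher and 2 lower, with 0 and 1 kept, the latter being Hes5, a Notch target that keeps progenitors undifferentiated, which had 82.4 on iNSC_13F and 258 on NSC. Of 13 Hedgehog genes 4 were higher and 1 lower, and Ptch1, the receptor and a target of the pathway, had 1762 and 4311, 2.45-fold lower. Of 11 Wnt response genes 2 were higher and 0 lower. Lef1, a transcription factor of the pathway, had 713 and 60.5, at least 6.85-fold higher, but its other probe set stood near the floor on iNSC_13F and below it on NSC, a difference of at least 0.23 in log2, and the target Axin2 had 504 and 267. Of 15 BMP response and Id genes 3 were higher and 4 lower, with 2 and 4 kept. Bmpr1a, a type I receptor, had 221 and 4208, 19.0-fold lower with 4 of 4 probe sets. The ligand gene Bmp2 was at least 2.60-fold higher and Bmp7 was 2.72-fold lower.

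Subunits of condensin and cohesin, the ring complexes that compact chromosomes and hold sister chromatids together, were the lowest of the lists. Of 21 measured members 17 were at least 4-fold lower, all 17 kept at 2-fold, and 0 were higher. The median was -3.81, and -3.67, -4.81 and -4.13 under quantile normalization, scaling to the controls and the running median. When the probe sets of a gene were summarised by their median, it was -2.31. Of the cohesin ring, Smc1a had 354 on iNSC_13F and 4956 on NSC, 14.0-fold lower, and Smc3 had 122 and 1612, 13.2-fold lower. The third ring subunit gene, Rad21, had 5430.2 and 9491, within 2-fold. Stag1 was 17.2-fold and Stag2, described above, at least 46.1-fold lower. Of factors that load, release or lock cohesin, Nipbl was at least 7.68-fold, Wapl 20.0-fold, Pds5b at least 12.4-fold and Esco2 at least 8.94-fold lower. Of condensin, Smc4 had 244 and 6113, lower by 3 of 3 probe sets, and Ncapg was at least 15.1-fold lower. By contrast, 3 condensin subunit genes stood apart. Ncapd2 had 3489 and 2511, Ncaph had 5689 and 4905, and Ncaph2 had 2325 and 1452, each within 2-fold on the deposited scale. Of the related repair complex, Smc5 was lower by at least 15.8-fold and Smc6 by at least 24.8-fold, and Smchd1, which acts on the inactive X chromosome, was 26.3-fold lower.

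Mitosis genes divided into a set at least 2-fold lower and a set within 2-fold of NSC. Of 34 measured members 18 were at least 2-fold lower, all 18 kept, and 0 were higher. The median was -1.30, and it was -2.38 under scaling to the controls and -0.57 over members above the floor on both arrays. Promoters of mitosis genes are known for the CCAAT box, bound by NF-Y, and for the cell cycle homology element, whose core reads TTTGAA, bound by the DREAM complex and B-Myb. The promoter sequences of 5 members are given to show that these elements occur in both sets: Kif11, Hmmr and Top2a were lower in iNSC_13F, and Cdk1 and Cdc20 were not. They are RefSeq sequences of build GRCm38.p6, from 250 bases before to 50 after the listed gene start, on the strand of the gene, and capitals mark CCAAT and TTTGAA on either strand (ATTGG and TTCAAA on the other). Kif11 lies at chr19:37376132-37376431 (plus strand), Hmmr at chr11:40733388-40733687 (minus), Top2a at chr11:99024140-99024439 (minus), Cdk1 at chr10:69352863-69353162 (minus) and Cdc20 at chr4:118437294-118437593 (minus).
Kif11: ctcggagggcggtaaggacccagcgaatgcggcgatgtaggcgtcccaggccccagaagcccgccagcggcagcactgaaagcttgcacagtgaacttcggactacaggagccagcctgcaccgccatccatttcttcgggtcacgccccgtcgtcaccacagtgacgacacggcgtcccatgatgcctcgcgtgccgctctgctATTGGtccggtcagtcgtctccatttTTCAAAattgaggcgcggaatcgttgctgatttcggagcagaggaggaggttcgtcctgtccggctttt
Hmmr: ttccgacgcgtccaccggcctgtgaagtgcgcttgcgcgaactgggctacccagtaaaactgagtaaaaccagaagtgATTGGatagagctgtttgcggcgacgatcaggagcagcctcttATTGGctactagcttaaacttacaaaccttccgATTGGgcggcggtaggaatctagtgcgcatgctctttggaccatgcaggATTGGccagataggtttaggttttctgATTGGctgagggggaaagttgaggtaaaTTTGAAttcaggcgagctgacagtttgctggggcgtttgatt
Top2a: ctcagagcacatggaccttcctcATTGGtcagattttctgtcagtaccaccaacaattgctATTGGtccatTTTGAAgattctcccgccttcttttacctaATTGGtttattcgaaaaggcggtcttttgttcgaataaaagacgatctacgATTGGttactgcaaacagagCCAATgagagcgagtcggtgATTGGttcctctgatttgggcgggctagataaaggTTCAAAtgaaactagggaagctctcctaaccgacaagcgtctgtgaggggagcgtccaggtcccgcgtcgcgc
Cdk1: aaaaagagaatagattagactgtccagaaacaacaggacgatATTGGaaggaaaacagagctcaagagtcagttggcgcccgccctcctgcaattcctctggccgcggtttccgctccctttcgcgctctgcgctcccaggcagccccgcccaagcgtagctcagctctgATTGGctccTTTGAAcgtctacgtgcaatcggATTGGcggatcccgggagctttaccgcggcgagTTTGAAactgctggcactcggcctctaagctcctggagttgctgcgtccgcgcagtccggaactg
Cdc20: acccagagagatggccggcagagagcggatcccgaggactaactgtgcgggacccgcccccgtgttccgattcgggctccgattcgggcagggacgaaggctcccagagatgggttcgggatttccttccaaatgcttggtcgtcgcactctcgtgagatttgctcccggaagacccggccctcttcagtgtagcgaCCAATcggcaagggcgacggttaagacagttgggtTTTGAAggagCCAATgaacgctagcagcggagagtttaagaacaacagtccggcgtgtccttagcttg

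Kif11, the motor that separates the spindle poles, had 78.6 on iNSC_13F and 1969 on NSC, at least 18.9-fold lower with 3 of 3 probe sets. Hmmr, a spindle protein, had 139.7 and 3071, lower by 4 of 5 probe sets. Top2a, the topoisomerase that untangles chromosomes, had 510.4 and 8374, 16.4-fold lower, and its other measured probe set differed by -0.81 in log2. All 3 are bright on the NSC array. Mki67, the proliferation marker Ki-67, had 179.7 and 5776, 32.1-fold lower. The checkpoint kinase gene Bub1 had 77.8 and 3732, at least 35.8-fold lower, and the spindle protein gene Nusap1 had 238 and 4436, 18.6-fold lower. Ttk, another checkpoint kinase, was at least 16.7-fold lower. Other members with roles in division were not lower on the deposited scale. Cdc20, which activates the anaphase-promoting complex, had 19944 and 11881. Cdk1, the kinase that drives mitosis, had 13032 and 7845, and Cenpa, the centromeric histone, had 11099 and 6106. The kinase genes Aurka and Plk1 had 3068 and 1771, and 2664 and 1673. Each of these 5 was 1.59-fold to 1.82-fold higher, and under scaling to the controls their log2 differences lay between -0.40 and -0.21. Cdk1, Cenpa, Aurka and Plk1 were chosen after their values were seen.

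**Figure D4:**
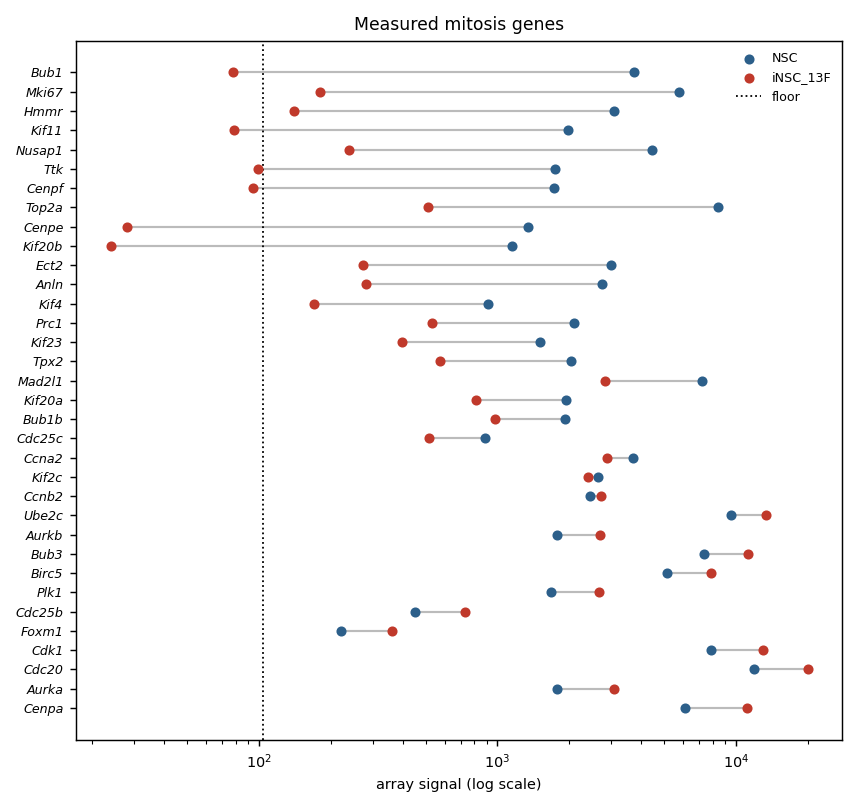
Array signal on a log scale of the 34 measured mitosis genes, ordered by their difference, with iNSC_13F in red, NSC in blue and the floor of 104.1 as a dotted line. From Bub1 to Kif20a the 18 genes at the top have NSC at least 2-fold above iNSC_13F, while the genes at the bottom, from Ccnb2 down to Cenpa (11099 against 6106), have iNSC_13F above NSC.

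Both promoter elements occurred in the lower set and in the other. Of the 34 measured mitosis genes 28 (82.4%) had a promoter in the table, of which 22 (78.6%) held CCAAT, 22 TTTGAA and 19 (67.9%) both. Among the promoters of all measured genes 39.3% held CCAAT, 11.2% TTTGAA and 4.68% both. Among all 27025 promoters of this length 37.9% held CCAAT, 18.1% TTTGAA and 7.12% both. Of the 18 lower members 16 had a promoter, and 12 held CCAAT, 12 TTTGAA and 10 both. Of the 16 others 12 had a promoter, too few for a share, and 10 held CCAAT, 10 TTTGAA and 9 both. These are matches of letters and not binding sites. Over the 1225 genes at least 4-fold lower, 1003 had a promoter, with a median GC content of 63.0% beside 61.3% for all measured genes. Of these promoters 37.8% held CCAAT, 13.8% TTTGAA and 5.68% both, near the shares of all measured genes.

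Most DNA replication genes were within 2-fold. Of 32 measured members 3 were higher and 4 lower, the 4 kept, and the median of 0.40 lay near that of all genes. Pcna, the clamp of the DNA polymerases, had 27300.0 on iNSC_13F and 18203 on NSC. Pola1, the catalytic subunit that starts each strand, had 72.3 and 1685, at least 16.2-fold lower by its 1 probe set. Rrm1, the large subunit of ribonucleotide reductase, was 2.82-fold lower, while the licensing factor gene Cdt1 was 2.10-fold higher. Of 25 measured p53 target and cell cycle inhibitor genes 4 were higher and 7 lower, with 1 and 5 kept. Beside Ccng1 and Trp53inp1, Rbl1 and Rb1, which encode pocket proteins that restrain cell cycle entry, were 8.19-fold and 4.85-fold lower. Gadd45b, a stress response gene, was at least 4.55-fold higher, and Cdkn1a, an inhibitor induced by p53, had 9928 and 4928, 2.01-fold higher but -0.06 in log2 under scaling to the controls.

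**Figure D5:**
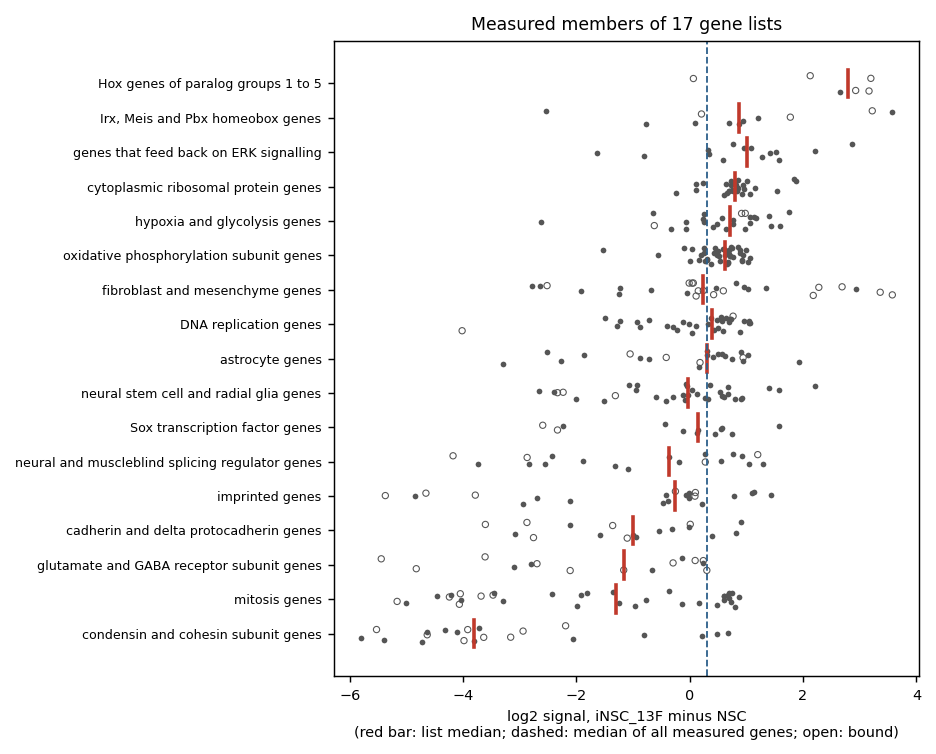
Log2 signal difference, iNSC_13F minus NSC, of every measured member of 17 gene lists (1 point a gene, open circles are bounds, the red bar is the list median and the dashed line the median of all measured genes, 0.30). Condensin and cohesin genes have a median of -3.81, mitosis genes -1.30 with members on both sides, and Hox genes of paralog groups 1 to 5 have 2.79.

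Regulators of RNA splicing were at least 2-fold lower more often than all measured genes, 47.4% against 20.5%. Genes of DNA methylation and demethylation were lower about as often as all genes, 21.4%. Of 19 measured neural and muscleblind splicing regulators 3 were higher and 9 lower, with 0 and 8 kept, and the median was -0.36. Elavl2, a neuronal RNA-binding protein, had 42.2 on iNSC_13F and 1883 on NSC, at least 18.1-fold lower with 4 of 5 probe sets. Mbnl1, the muscleblind splicing factor, had 336 and 4491, 13.4-fold lower. Qk, which encodes the glial RNA-binding protein quaking, had 2775 and 14950.3, 5.39-fold lower with 7 of 7 probe sets. Ptbp2, the neural form of the polypyrimidine tract protein, was 5.90-fold lower. Ptbp1, the form of non-neural cells and stem cells, had 8495 and 4125, 2.06-fold higher but -0.03 in log2 under scaling to the controls. Of 14 measured genes of DNA methylation and demethylation 1 was higher and 3 lower, the 3 kept, and the median was 0.30, as over all genes. Tet1, which oxidizes methylcytosine, was at least 8.51-fold and Tet2 at least 4.92-fold lower, while the methyltransferase gene Dnmt1 had 4823 and 3087.

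Imprinted genes, expressed from 1 parental copy, had 3 of 21 measured members higher and 7 lower, with 0 and 7 kept, and a median of -0.25. Nap1l5 had 51.3 on iNSC_13F and 4311 on NSC, at least 41.4-fold lower. The growth inhibitor gene Grb10 had 57.9 and 2623, at least 25.2-fold lower, and Nnat, a neural membrane proteolipid gene, at least 13.8-fold. Peg3 was 7.65-fold lower with 3 of 3 probe sets. Gnas, Mest and Ndn, the brightest members on NSC, were within 2-fold, with 22648 and 13210.4, 10138 and 10175, and 5921 and 7679. Among sex-linked genes, Xist, the RNA that coats the inactive X chromosome, had 3072 and 13134, 4.28-fold lower with 3 of 3 probe sets. The X-linked genes Ddx3x and Kdm6a, which escape X inactivation, were 16.2-fold and 9.90-fold lower, while Kdm5c, which also escapes, had 1628 and 917. The Y-linked genes Uty and Kdm5d were below the floor on both arrays, and Eif2s3y stood at 106 on iNSC_13F and 19.0 on NSC.

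Genes of energy metabolism and protein synthesis had medians above that of all genes, 0.30, on the deposited scale. Scaling to the controls put these medians below 0, but still above the -0.65 of all genes. Quantile normalization put oxidative phosphorylation genes at 0.18 and ribosomal protein genes at 0.04, below the 0.37 of all genes. Hypoxia and glycolysis genes were at 0.68 there, above it. Of 26 measured hypoxia and glycolysis genes 8 were higher and 1 lower, with 0 and 1 kept, and the median of 0.70 was -0.37 under scaling to the controls. Slc2a1, the main glucose transporter, had 2301 on iNSC_13F and 875 on NSC, 2.63-fold higher with 3 of 3 probe sets but 0.32 in log2 under that scaling. The histone demethylase gene Kdm3a, induced by hypoxia, had 351 and 2155, 6.14-fold lower. Of 43 oxidative phosphorylation genes 2 were higher and 1 lower (median 0.62), and of 30 cytoplasmic ribosomal protein genes 6 were higher and 0 lower (median 0.81). Their medians were -0.45 and -0.27 under scaling to the controls, and 0.01 and 0.12 with the running median. Of 15 housekeeping genes 2 were higher and 1 lower (median 0.61). The latter was Tfrc, the transferrin receptor gene, with 724 and 6488, 8.96-fold lower, while Actb had 42471 and 27176.

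Stress response and lipid synthesis genes were mostly within 2-fold. Of 26 measured genes of the unfolded protein and amino acid stress response 4 were higher and 2 lower, with 0 and 2 kept. Hsp90b1, the endoplasmic reticulum form of the Hsp90 chaperone, had 1000.4 on iNSC_13F and 10652 on NSC, 10.6-fold lower. Xbp1, a transcription factor of the response, had 9702 and 3418, 2.84-fold higher. Dnajc3, a cochaperone gene, was 3.77-fold lower. Of 26 cholesterol synthesis and SREBP genes 1 was higher and 3 lower, and Idi1, an early enzyme of the pathway, had 1362 and 10214, 7.50-fold lower. Of 17 measured MHC class I and interferon response genes 2 were higher and 3 lower. Ifitm2, a membrane protein that restricts virus entry, had 5245 and 1017, 5.16-fold higher, while Ifit2, another interferon target, was at least 4.60-fold lower.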

How the data were processed

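Total RNA labelled with biotin was measured on 1-colour Affymetrix mouse arrays, 1 array for each of 4 groups, which were taken from the sample titles. The deposited values are intensities on a linear scale. MAS5, which summarises each array alone, is named in the submitters' processing notes, with a version not given in the sources used here. On both arrays the authors' intensities had a 2% trimmed mean of 500, so no further scaling was applied. Detection calls were not used here.

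Gene symbols came from the platform's annotation and were updated by gene ID through RefSeq names of GRCm38.p6, which matched 34741 of 34945 probe sets. There were 64 control probe sets, 932 with several genes and 9160 with none, and none of these were named. Each gene was read by the probe set with the highest mean log2 signal across 4 arrays. As a floor, the 95th percentile of 84 odorant, vomeronasal and taste receptor probe sets was taken on every array, and the highest of the 4, 104.1, was used (99.57 on iNSC_13F, 37.21 on NSC). Lower values were raised to the floor, and log2 was then taken. A gene was measured if above the floor on at least 1 of the 2 arrays. Calls used a fixed size, 4-fold for genes and 2-fold for list members, and no test was run. Precision is limited by the number of arrays, 1 per group, and by how far a signal lies above background.

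Gene lists (51, with 1221 genes, of which 1125 had a probe set) and members were chosen with earlier results of these data known. Named genes were the 15 largest differences each way where both arrays were above the floor, the 8 largest bounds each way, and the 10 genes each way with the largest smallest difference over at least 3 probe sets. From a list, the 6 most different members and the 3 brightest on NSC could be named, and any member of lists of up to 25 genes. Genes without an established symbol were counted only. Other list members in the text were chosen after their values were seen. Promoters were matched by symbol, the first listed start per gene. Alternatives were 3 other scalings (quantile, hybridization controls, running median over 1001 genes), the 75th and 99th percentiles as floors, a pseudocount of 16 in place of a floor, gene values from the median probe set, no _s_at or _x_at probe sets, and genes above the floor on both arrays only. The scripts were tested on simulated data and used Python 3.11.15, numpy 2.4.6, pandas 2.3.3 and matplotlib 3.10.9.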

Additional observations from a re-analysis of the deposited data

How the results depend on the processing

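The 9 alternatives were run for 2 counts, 49 list medians and 65 named genes. A list median or log2 difference counted as stable where it moved by less than 0.62, the pooled SD between probe sets of a gene. The counts were judged by their ratio to the main count instead. Of the list medians 373 values were stable, 59 moved and 1 reversed, and of the named genes' log2 differences 441 were stable, 128 moved and 0 reversed. The count of higher genes, 120, was 196 with quantile normalization, 34 with scaling to hybridization controls, 60 with the running median, 189 with the lower floor, 314 with a pseudocount in place of the floor and 74 with the median of probe sets. The count of lower genes, 1225, was 2327 with scaling to hybridization controls and 655 with the median of probe sets. Scaling to hybridization controls moved the medians of glutamate and GABA receptor subunits to -1.87, cadherins to -1.99, mitosis genes to -2.38, condensin and cohesin to -4.81 and sex-linked genes to -3.78, and turned that of ERK feedback genes to -0.061. The higher floor gave -2.34 for receptor subunits and -3.14 for condensin and cohesin, and the lower floor -0.85 for sex-linked genes. The pseudocount gave -2.70 for receptor subunits and 3.92 for Hox genes of groups 1 to 5, and the median of probe sets gave 1.88 for those Hox genes and -2.31 for condensin and cohesin. Without _s_at and _x_at probe sets sex-linked genes had -3.31, and mitosis genes above the floor on both arrays had -0.57. Scaling to the controls divides each array by 1 factor, so genes above the floor on both arrays all shifted by the same amount. Tcim, for example, went from 4.60 to 3.52 in log2. The cause of the other shifts was not tested. No paired analysis was possible because each group has 1 array and the result comes from no test. Values near the floor have the least signal over background.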

Other observations

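Lists not described above also held differences. Of 19 measured metalloprotease, Adamts and inhibitor genes 3 were higher and 4 lower, with 0 and 3 kept, and the aggrecanase gene Adamts5 had 86.1 on iNSC_13F and 375 on NSC, at least 3.60-fold lower. Of 14 measured annexin and S100 genes 1 was higher and 0 lower: Anxa6, a calcium-dependent membrane binding protein, had 1022 and 433, 2.36-fold higher. Of 12 measured IGF pathway genes 4 were higher and 2 lower, with 0 and 1 kept. Igfbp3, a binding protein of IGF, had 30434 and 11776, and the insulin receptor gene Insr had 181 and 857, 4.75-fold lower, in cells grown with insulin. Of 6 measured dorsoventral patterning genes 2 were higher and 1 lower, with Msx1 the member kept. Of 3 measured midbrain and hindbrain genes 1 was higher: Gbx2, an anterior hindbrain factor, had 270.1 and 87.5, at least 2.59-fold higher.

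These values describe 2 cultures on 1 array each, so a difference between cultures, RNA preparations or hybridizations cannot be told apart from a difference between the cell types. The 2 arrays differ in their controls, and single-gene values rest on 1 probe set for many genes.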
